A study of Mus musculus with 4 samples.

Results

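The genes described here build the membrane and the heme of the red cell. They are 32 genes listed by symbol: 7 enzymes of heme synthesis, 5 genes of iron uptake and mitochondrial transport, 12 membrane and surface proteins, and 8 other red cell genes (a regulator, carbonic anhydrases, a globin chaperone and others). A gene counted as measured where the platform annotation gave a probe set to its symbol alone, and the brightest such probe set, by its mean over all arrays, stood for it. That held for 31 of the 32, among 18193 genes in all. Ahsp, the globin chaperone, was not analysed here.

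The values come from mouse haematopoietic stem cells (HSC), sorted in a KLS CD48- CD150+ gate and hybridised to Affymetrix arrays. In the Rb family deficient group the genotype label is Rb -/- p130 -/- p107-/-, and in the group called wild type it is Rb +/+ p130 +/+ p107-/-. Both groups therefore lack p107 by label and differ in Rb and p130. Recombination was started in adult mice with tamoxifen, cells were sorted 2 weeks later, and each group had 2 arrays, each from a pool of 3 mice. The tamoxifen protocol is given alike for both groups, and the driver of the recombinase is not named in the sources used here. Nothing states that the pools were independent litters or days. The limma p-values set each difference against the spread between these pools, moderated over all genes. They may not cover the spread between litters or days.

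Red cells are made from stem cells through progenitors that commit step by step to the erythroid lineage. The transcription factor KLF1 switches on much of the red cell program, in which heme is built from glycine by a chain of enzymes split between mitochondrion and cytosol, iron enters through the transferrin receptor, and a spectrin skeleton is anchored to the membrane by ankyrin and the anion exchanger. Some of these genes, such as carbonic anhydrase 1, are used early, while globins and erythroid ALA synthase belong to later stages. The retinoblastoma family restrains E2F factors and cell cycle entry, and RB is known to be needed for normal late red cell maturation.

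Values are on the log2 scale after RMA, so a difference of 1 is a doubling. Where a gene is given by pool, the values are those of deficient pools 1 and 2 against wild type pools 1 and 2, in that order. Array medians ran from 5.94 to 6.02. Over the 4 pools, genes of the gate ran from 8.81 to 9.90 for Slamf1 (CD150), from 9.94 to 11.09 for the stem cell factor receptor Kit and from 5.84 to 7.09 for Cd48, and the HSC marker gene Procr ran from 10.03 to 11.03. Among 10 HSC and gate markers, both deficient pools lay below both wild type pools for 4, Kit and Procr included (18.5% of all genes). Both lay above for 1 (17.0% of all genes), and 0 of the 10 had a limma adjusted p under 0.05. Of 8 measured genes that mark the erythroid lineage, Gata1 ran from 9.18 to 10.15, Car1 from 8.08 to 11.70, Klf1 from 7.40 to 9.86, Rhag from 7.10 to 9.15, the erythropoietin receptor gene Epor from 7.28 to 7.74 and Slc4a1 from 5.55 to 7.24. The alpha globin gene Hba-a1 (4.20 to 4.62, on a probe set given to it alone) and Alas2 (4.80 to 5.48) were in every pool below the median of all probe set means (5.99). No detection calls were used, so it is not stated whether a dim probe set was above background. Cd36 and Trim10 were the other members with a mean below that median, so 28 of the 31 passed such a filter.

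No erythroid gene passed the test between genotypes, while several differed several-fold between pools of the same genotype. The median log2 difference, deficient minus wild type, was -0.02 over the 31 genes, with 15 above 0 and 16 below, against a median of -0.00376 and 49.2% above 0 over all genes. With 1 pool left out, the members' median ran from -0.24 to 0.32, so its sign depended on the pools used. In limma, 0 of the 31 passed at an adjusted p under 0.05, as did 0 of all genes (0%). The lowest adjusted p among the members was 0.774. Before adjustment, limma's p was under 0.05 for 1 member with a positive difference (2.19% of all genes) and 2 with a negative one (4.04% of all genes). Both deficient pools lay above both wild type pools for 3 members, or 9.68%, where 17.0% of all genes did so, and below both for 2, or 6.45%, where 18.5% did. The larger of the pool differences within a group exceeded the difference between the groups for 27 of the 31, or 87.1%, against 76.7% of all genes. In bulk samples, fewer cells of a type and less RNA per cell cannot be told apart. The median was -0.10 over the 7 members that many other cells also use (Add2, Aqp1, Car2, Cd36, Hebp1, Tfrc and Xpo7) and 0.04 over the other 24.

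**Figure D1:**
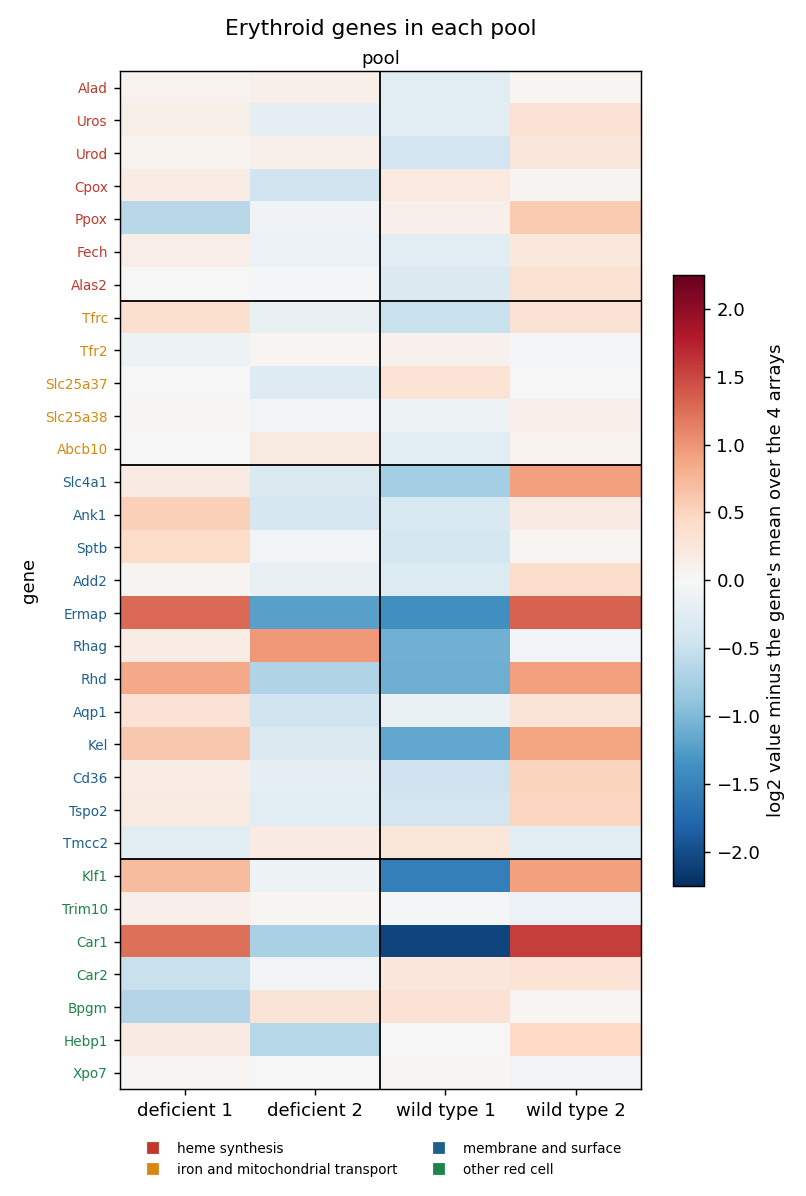
Log2 value of each of the 31 erythroid genes (rows, coloured by role) in each of the 4 pools (columns), after subtracting the gene's mean over the 4 arrays. The darkest cells belong to Car1, Ermap, Klf1, Rhd and Kel, which are high in deficient pool 1 and wild type pool 2 and low in wild type pool 1; the heme synthesis rows are pale.

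No heme synthesis gene passed the test. Their median difference was -0.02, with 3 of 7 above 0, and each gene's difference was between -0.70 and 0.20. With 1 pool left out, that median ran from -0.22 to 0.26. Alas2, the erythroid form of the first and rate-limiting enzyme, had values of 5.15 and 5.10 against 4.80 and 5.48. The deficient values lay between the wild type values, and the difference was -0.02 (n = 2 pools a genotype, SE 0.25, 95% interval -0.66 to 0.62, limma adjusted p = 0.996). Alad, which joins ALA molecules into porphobilinogen, stood at 9.71 and 9.75 against 9.39 and 9.68. Its groups did not overlap, but the difference of 0.20 (SE 0.17, limma adjusted p = 0.874) was near its error, and a dimmer probe set differed by -0.11. Ppox, the protoporphyrinogen oxidase of the inner mitochondrial membrane, stood at 7.09 and 7.63 against 7.83 and 8.31, below both wild type pools and 1.63-fold lower on average (log2 difference -0.70, SE 0.26, limma adjusted p = 0.785). Its other probe sets did not share this, at 0.29 and -0.02, and the mean of its probe sets differed by -0.14. Leaving out deficient pool 1 gave -0.43, and leaving out wild type pool 2 gave -0.46.

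The remaining heme enzymes had overlapping groups. Uros (uroporphyrinogen III synthase) differed by -0.09, Urod (uroporphyrinogen decarboxylase) by 0.19, Cpox (coproporphyrinogen oxidase) by -0.28 and Fech, the ferrochelatase that inserts iron, by 0.02, with SE from 0.22 to 0.25. Fech turned to -0.03 when each array was centred on its median, and Urod to -0.06 on its probe set without an _x_at name. Between the wild type pools, 6 of the 7 heme genes were higher in pool 2, by a median of 0.49, where 54.5% of all genes were higher in that pool. Between the deficient pools 4 of 7 were higher in pool 1, by a median of 0.05. No heme gene differed by 1 or more between pools of a group.

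Of the 5 genes of iron uptake and mitochondrial transport, 2 were above 0, the median difference was -0.04 (-0.13 to 0.09 with 1 pool left out), and no groups were apart. Tfrc, the transferrin receptor, had values of 10.82 and 10.29 against 9.96 and 10.78. The highest and the lowest value were in opposite genotypes with the other pools between, and the difference was 0.19 (n = 2 pools a genotype, SE 0.33, 95% interval -0.65 to 1.02, limma adjusted p = 0.944). Without wild type pool 1 it was -0.22 and without deficient pool 1 it was -0.07. Both dimmer Tfrc probe sets showed the same order of pools within each group, with wild type pool 2 above pool 1 by 0.77 and 1.03 and deficient pool 1 above pool 2 by 0.25 and 0.23. Tfr2, the second transferrin receptor and an iron sensor, differed by -0.07, and its values ran only from 12.01 to 12.21. Slc25a37 (mitoferrin 1, which imports iron into mitochondria) differed by -0.30, the glycine carrier gene Slc25a38 by -0.04 and the mitochondrial transporter gene Abcb10 by 0.19, each with SE from 0.16 to 0.19.

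Among the membrane and surface genes, the groups of Rhag did not overlap, and the pools of a group were at least 1 apart for Ermap, Rhd, Kel, Slc4a1 and Rhag. The median difference was 0.01, with 6 of 12 above 0, but its sign depended on the pools used: with deficient pool 1 left out it was -0.26, with wild type pool 1 left out -0.48, and with the second pool of either genotype left out 0.43 (deficient) or 0.51. Rhag, the Rh-associated glycoprotein that carries the Rh complex, had values of 8.35 and 9.15 against 7.10 and 8.12. Both deficient values were above both wild type values, 2.21-fold on average (log2 difference 1.14 with n = 2 pools a genotype, SE 0.42, 95% interval 0.08 to 2.21, limma adjusted p = 0.783). It was the only member with a genotype difference of at least 1, which 0.528% of all genes reached upward; 0 members reached it downward (0.275% of all genes). Deficient pool 1 and wild type pool 2 were close beside the 1.02 between the wild type pools, and leaving out wild type pool 1 or deficient pool 2 gave 0.63 or 0.75.

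Rhd, which encodes the Rh blood group protein that sits in the membrane with RHAG, had values of 8.42 and 6.89 against 6.47 and 8.49. Deficient pool 1 and wild type pool 2 were high and the other pools low, so the genotypes overlapped fully and the difference was 0.17 (SE 0.79, 95% interval -1.83 to 2.18, limma adjusted p = 0.981). Ermap, an immunoglobulin superfamily protein that carries the Scianna blood group, stood at 10.10 and 7.61 against 7.44 and 10.16. The deficient pools differed 5.64-fold and the wild type pools 6.55-fold, in a gene whose group difference was 0.06 (SE 1.14, limma adjusted p = 0.998). Kel, the Kell blood group endopeptidase, stood at 6.92 and 5.98 against 5.13 and 7.19, a 1.91-fold and a 4.17-fold gap between pools and a group difference of 0.29 (SE 0.71, limma adjusted p = 0.961). Slc4a1, the band 3 anion exchanger, stood at 6.50 and 6.00 against 5.55 and 7.24 on an _x_at probe set. Its wild type pools differed 3.23-fold on that probe set but by 0.61 on the log2 scale on the next brightest one, which has no such suffix. The direction of the group difference turned without a pool for Rhd (-0.59 without deficient pool 1, -0.84 without wild type pool 1), Ermap (-1.19 and -1.30 without the same pools), Kel (-0.17 and -0.74) and Slc4a1 (0.11 without deficient pool 2, 0.71 without wild type pool 2).

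**Figure D2:**
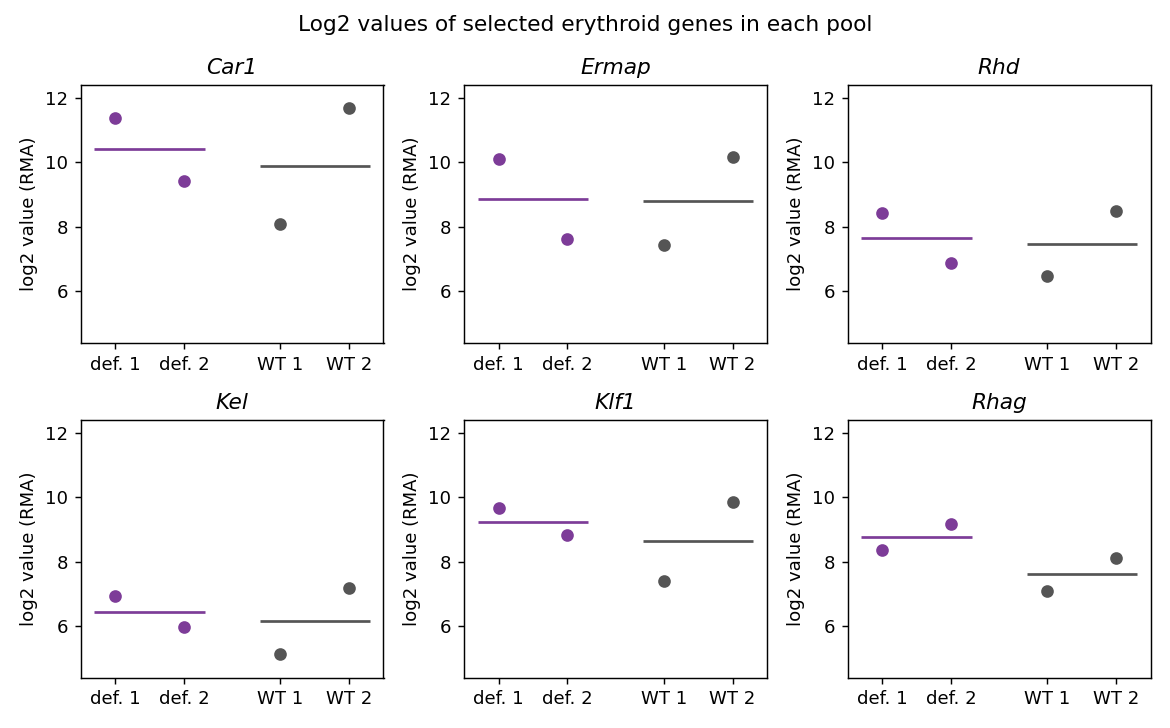
Log2 value (vertical axis) of 6 erythroid genes in each pool, with deficient pools (def.) in purple and wild type pools (WT) in grey; points are pools and lines are group means. Car1, Ermap, Rhd, Kel and Klf1 are high in deficient pool 1 and wild type pool 2, whereas Rhag is highest in deficient pool 2 at 9.15.

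The pools of each group were less than 1 apart for the membrane skeleton genes. Ank1 (ankyrin 1) differed by 0.15, Sptb (beta spectrin) by 0.36 and Add2 (beta adducin) by -0.10 between genotypes. On its brightest probe set each was also higher in deficient pool 1 than in pool 2, by 0.90, 0.48 and 0.21. Each was likewise higher in wild type pool 2 than in pool 1, by 0.52, 0.45 and 0.70. The dimmer Ank1 probe sets did not share this order, with wild type gaps (pool 2 minus pool 1) of -0.36, -0.23 and -0.05. The water channel gene Aqp1 (-0.12), the scavenger receptor gene Cd36 (-0.04) and Tspo2 (-0.05) had the same order of pools on their brightest probe sets. The next brightest Cd36 probe set did not, with a deficient gap (pool 1 minus pool 2) of -0.23. Tmcc2 had the opposite order, with pool differences of -0.43 and -0.52, and -1.14 and -1.20 on its dimmer probe set, and a group difference of -0.04.

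Of the other red cell genes, Klf1 and Car1 showed the widest gaps between pools. Klf1, the erythroid master regulator, had values of 9.65 and 8.81 against 7.40 and 9.86. Wild type pool 1 was the lowest and wild type pool 2 the highest, a 5.50-fold gap within a genotype, and the group difference was 0.59 (n = 2 pools a genotype, SE 0.81, 95% interval -1.46 to 2.65, limma adjusted p = 0.920), or -0.64 without wild type pool 1. Car1, carbonic anhydrase 1, stood at 11.39 and 9.41 against 8.08 and 11.70. Its wild type pools differed 12.3-fold and its deficient pools 3.94-fold, and the group difference of 0.51 (SE 1.28, limma adjusted p = 0.962) turned to -0.48 or -1.30 when the first deficient or the first wild type pool was left out.

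Car2, the carbonic anhydrase that red cells share with many other cells, had another order of pools than Car1. It had values of 12.29 and 12.72 against 13.03 and 13.09. Both deficient pools were lower, 1.47-fold on average (log2 difference -0.56 with n = 2 pools a genotype, SE 0.19, 95% interval -1.05 to -0.07, limma adjusted p = 0.774), and the difference was -0.34 without deficient pool 1. Trim10, a RING finger protein of terminal red cell differentiation, stood at 5.73 and 5.66 against 5.59 and 5.49, a gap of 0.16 (SE 0.14, limma adjusted p = 0.882) in a dim probe set whose groups did not overlap. The bisphosphoglycerate mutase gene Bpgm differed by -0.39, and its dimmer probe sets by -0.94 and -0.05. The heme binding protein gene Hebp1 differed by -0.45 (SE 0.32) and the exportin gene Xpo7 by 0.04 on its brightest probe set. That probe set had values from 12.28 to 12.39, and the next brightest, without a shared-transcript suffix, differed by -0.56, so the sign of Xpo7 depends on the probe set.

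**Figure D3:**
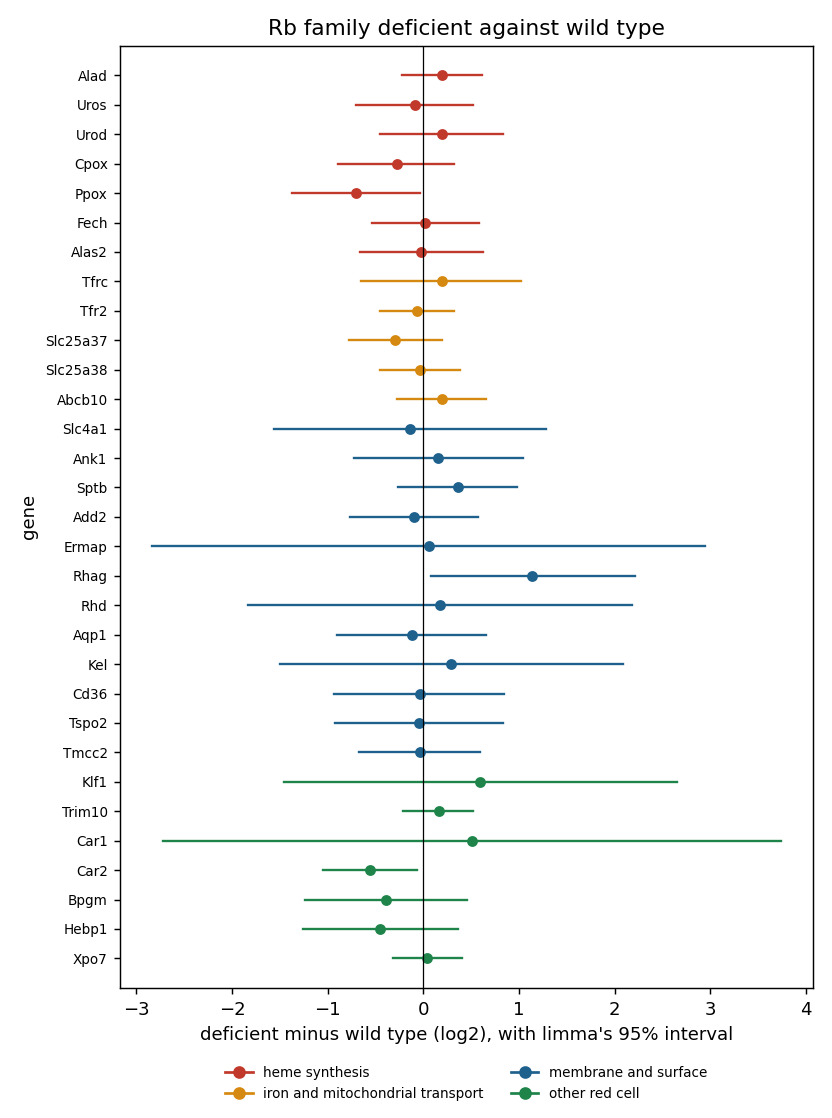
Difference between genotypes for each of the 31 erythroid genes on the log2 scale (horizontal axis, deficient minus wild type), with limma's 95% interval from 2 pools per group; colours give the role. The intervals of Rhag, Ppox and Car2 do not reach 0 before adjustment, and those of Car1, Ermap, Rhd, Kel and Klf1 are the widest of those drawn.

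Within groups, the order of the pools was shared by most members. In all, 18 of 31, or 58.1%, were higher in deficient pool 1 than in pool 2 and also higher in wild type pool 2 than in pool 1, where 30.3% of all genes were. For membrane and surface genes the count was 10 of 12, or 83.3%. It was 3 of 7 for heme synthesis genes, 2 of 5 for iron and mitochondrial transport genes and 3 of 7 for the other red cell genes. Car1, Ermap and Rhd exceeded 1 in both gaps, as did 28 of all genes (0.154%). The deficient pools were at least 1 apart for 3 members, or 9.68%, against 1.24% of all genes, and the wild type pools for 7, or 22.6%, against 2.37%. The directions in which the pools were subtracted were chosen after the values were seen.

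Across the 31 members the deficient gap (pool 1 minus pool 2) and the wild type gap (pool 2 minus pool 1) had a Pearson's r of 0.75, and 0.48 over the 28 members other than Car1, Ermap and Rhd. Over all 18193 genes r was 0.19. These are descriptions across genes, which are not independent replicates; the gaps use different arrays, and all 4 arrays were normalized together. The labels name no batch for the pools.

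**Figure D4:**
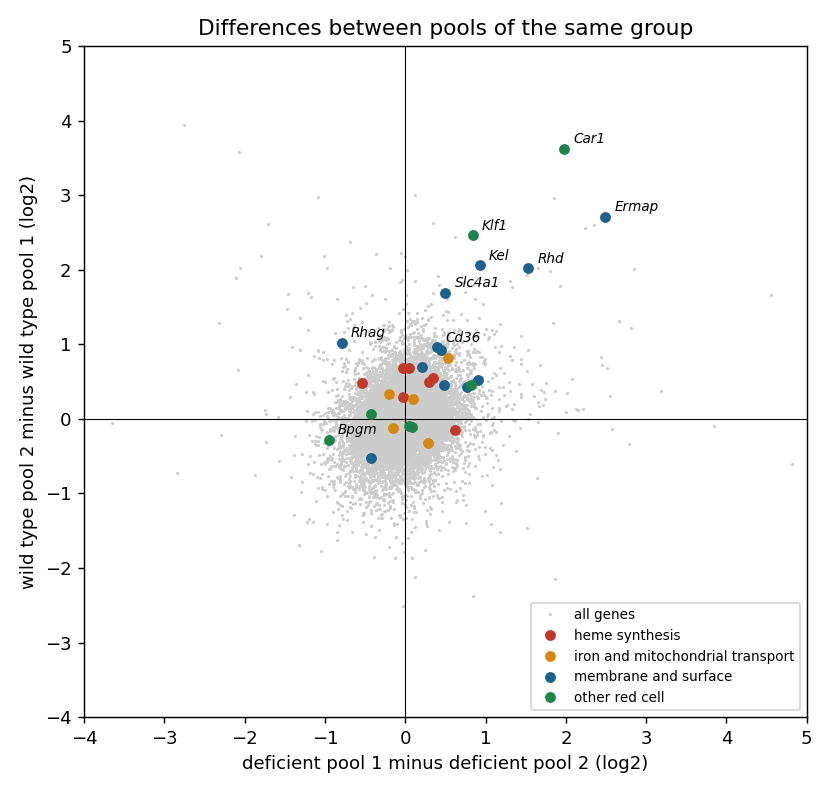
Difference between the deficient pools (horizontal axis, pool 1 minus pool 2, log2) against the difference between the wild type pools (vertical axis, pool 2 minus pool 1, log2) for each erythroid gene, coloured by role, and for all genes in grey. Car1 at 1.98 and 3.62 and Ermap at 2.49 and 2.71 lie far up and right of the other members, and Rhag at -0.79 and 1.02 lies on the other side of the vertical line.

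The sequence before the start of Ermap, Rhd, Kel and Klf1, genes with wide gaps between pools, and of Rhag, which did not follow them in the deficient pools, is shown so that the regulatory letters can be compared. Car1 has no entry in the promoter table used. Each is the 250 bases before the RefSeq start (GRCm38.p6), written along the gene, with matches on either strand in capitals. The letters searched were AGATAA, a form of the site that GATA factors bind, and CCNCNCC, a form of the box that KLF factors bind.
Ermap, chr4:119189996-119190245, minus strand: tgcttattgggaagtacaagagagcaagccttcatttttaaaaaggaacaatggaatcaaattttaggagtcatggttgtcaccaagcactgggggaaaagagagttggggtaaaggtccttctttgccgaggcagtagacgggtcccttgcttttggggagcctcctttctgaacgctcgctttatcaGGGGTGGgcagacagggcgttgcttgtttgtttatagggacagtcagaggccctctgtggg
Rhd, chr4:134864286-134864535, plus strand: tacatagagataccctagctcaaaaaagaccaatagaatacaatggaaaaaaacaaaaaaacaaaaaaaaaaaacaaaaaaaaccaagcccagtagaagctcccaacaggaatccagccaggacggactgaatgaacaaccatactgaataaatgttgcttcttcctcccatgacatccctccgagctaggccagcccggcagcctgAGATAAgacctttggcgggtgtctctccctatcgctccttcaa
Kel, chr6:41704326-41704575, minus strand: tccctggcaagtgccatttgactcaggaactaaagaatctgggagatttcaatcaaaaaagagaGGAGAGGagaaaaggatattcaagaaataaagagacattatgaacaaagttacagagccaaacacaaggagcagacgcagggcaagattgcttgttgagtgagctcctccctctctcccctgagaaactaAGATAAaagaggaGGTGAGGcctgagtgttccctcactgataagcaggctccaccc
Klf1, chr8:84901732-84901981, plus strand: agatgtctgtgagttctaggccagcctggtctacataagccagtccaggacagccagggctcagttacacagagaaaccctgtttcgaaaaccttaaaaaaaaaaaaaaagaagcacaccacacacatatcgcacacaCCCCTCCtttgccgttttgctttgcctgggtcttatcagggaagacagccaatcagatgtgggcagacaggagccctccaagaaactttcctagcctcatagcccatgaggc
Rhag, chr17:40810899-40811148, plus strand: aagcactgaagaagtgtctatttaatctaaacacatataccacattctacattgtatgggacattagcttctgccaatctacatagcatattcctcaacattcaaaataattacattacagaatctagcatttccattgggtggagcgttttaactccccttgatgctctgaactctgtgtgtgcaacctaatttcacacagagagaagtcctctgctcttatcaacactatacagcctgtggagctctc

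Rhd and Kel each held 1 AGATAA match, and Ermap and Klf1 held 1 and Kel 2 CCNCNCC matches. Rhag held neither of these letters. Other forms of a GATA site, such as TGATAA, were not searched or put in capitals. Kel also holds TGATAA, and Ermap, Klf1 and Rhag hold it on the other strand (TTATCA). No AGATAA match therefore does not mean no GATA site. Other forms of the KLF box, such as CCACCC, were not searched either. Kel also holds CCACCC, and Ermap and Rhag hold it on the other strand (GGGTGG), in Ermap within the marked match. No CCNCNCC match, as in Rhag and Rhd, therefore does not mean no KLF box. Of the 24 members with a promoter in the RefSeq table, 4 (16.7%) held AGATAA, against 10.3% of 27025 promoters of the same length. The letters CCNCNCC were in 19 of the 24 (79.2%), against 65.0% of all promoters. The E2F site, searched as TTTNNCGC with C or G at each N, was in 0 of the 24, against 1.91% of all. Overlapping matches of a motif were counted separately, and AGATAA and CCNCNCC cannot overlap each other. A match or its lack in this window is a description only.

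Other genes of the erythroid program were read from a list of 50, chosen by role, of which 37 were measured. By limma 0 passed the adjusted threshold. Before adjustment, limma's p was under 0.05 for 1 positive difference (2.19% of all genes) and 0 negative ones (4.04% of all genes). The median difference was 0.02, with 19 of 37 above 0, against 49.2% of all genes. The gene with the lowest p was Steap3, the ferrireductase of the transferrin cycle, at 7.07 and 7.10 against 6.41 and 6.69. Both deficient pools were higher, by 0.54 (n = 2 pools a genotype, SE 0.16, limma adjusted p = 0.761). Gata1, the factor that works with KLF1, stood at 9.60 and 10.15 against 9.18 and 9.49, a gap of 0.54 (SE 0.24, limma adjusted p = 0.802), and did not share the pool order of Klf1. Icam4, the Landsteiner-Wiener blood group protein, stood at 8.70 and 8.54 against 7.36 and 8.52 (0.68, SE 0.38). The others of the 10 with the lowest p were Tmod1 (tropomodulin, 0.44), Gypc (glycophorin C, -0.35), the cofactor genes Lmo2 (-0.35) and Ldb1 (-0.61), the ferritin heavy chain gene Fth1 (-0.26), Aco1 (the iron regulatory protein, -0.35) and Btrc (-0.43).

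No globin gene passed the test. Hba-a1 differed by 0.23, Hba-a2 by -0.06, Hbb-b2 by 0.05, Hbb-y by -0.02 and Hbb-bh1 by -0.13, and their values over the 4 pools ran from 4.20 to 6.49. The embryonic globin gene Hba-x stood at 5.81 and 6.03 against 5.63 and 5.85. The widest pool gap among the globins was 0.66, between the deficient pools for Hbb-bh1. Globin genes are near-identical copies, so a probe set can read more than its named gene. The listed globin genes Hbb-bt, Hbb-bs, Hbb-b1 and Hbq1a were not among those measured. Probe sets given to several genes were left out, so these values do not give the full level of adult globin. Of the 37 other erythroid genes, 14 had the pool order that most members shared, where 30.3% of all genes did. Between the deficient pools 18 of the 37 were higher in pool 1, with a median gap of -0.01. Cldn13, an erythroblast claudin, and Blvrb, the biliverdin reductase B of red cells, were the genes of this list with both pool gaps of at least 1. Cldn13 stood at 8.88 and 6.64 against 6.02 and 8.58, and Blvrb at 10.08 and 8.77 against 8.20 and 10.05. The housekeeping ALA synthase gene Alas1 ran otherwise, at 8.01 and 9.32 against 8.78 and 9.71, the higher value in pool 2 of both groups.

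Markers of other cell types were also uneven between pools. The mean log2 level of the 31 erythroid members was 8.48 and 8.12 against 7.90 and 8.64. Over 10 neutrophil markers it was 11.79 and 11.69 against 10.13 and 11.51, over 6 mast cell and basophil markers 6.76 and 7.32 against 6.21 and 7.26, and over 10 macrophage markers 5.88 and 5.88 against 5.46 and 6.01. Over 8 megakaryocyte markers it was 8.32 and 8.78 against 8.37 and 8.41, over 6 B and T cell markers 6.67 and 6.65 against 6.42 and 6.65, and over 10 HSC and gate markers 9.42 and 9.75 against 9.61 and 9.89. Wild type pool 1 was the lowest for the erythroid members and for the neutrophil, mast cell, macrophage and B and T cell markers. Of the 10 neutrophil markers, 7 were higher in deficient pool 1 than in pool 2, with a median gap of 0.55, and 10 were higher in wild type pool 2 than in pool 1, with a median gap of 1.25. All 10 had a higher mean in the deficient group (49.2% of all genes), with a median difference of 0.78, and 0 had a limma adjusted p under 0.05. The mean levels of megakaryocyte and mast cell markers were higher in deficient pool 2. Of the marker genes with the highest signal, S100a8 had 14.28 and 13.61 against 12.36 and 13.56, Ngp 13.61 and 13.19 against 12.67 and 13.04, and S100a9 13.81 and 13.06 against 11.45 and 13.16. The primary granule genes of the same list had the opposite order in the deficient pools, with Elane at 6.84 and 9.60 against 5.56 and 9.50, Mpo at 10.72 and 12.83 against 10.71 and 12.60, and Prtn3 at 12.01 and 12.55 against 11.02 and 12.32. The part of such cells in the erythroid values was not tested.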

How the data were processed

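Each of 4 arrays measured 1 pool of sorted HSC. The deposited values are log2 expression values, made by the authors with RMA (per the submitters' processing notes, which also name limma; the versions are not stated there). RMA makes array distributions nearly equal, so a change in total RNA would not show, and it compresses differences of dim probe sets. The table held 45101 probe sets, of which 64 array controls were left out; 34945 of the others had exactly 1 gene symbol, 932 several and 9160 none. Symbols were updated by Entrez ID with a RefSeq table of GRCm38.p6 (34741 found). Differences were fitted over 18193 genes with limma 3.58.1 (lmFit, eBayes) in R 4.3.3, with no block and Benjamini-Hochberg adjustment, and checked on simulated data; SE is limma's moderated standard error. No filter was applied. The number of arrays limits the precision. Members with groups that do not overlap, or with pools of a group 1 or more apart, and Klf1, Alas2 and Tfrc are given by pool; of the other erythroid genes, the 10 with the lowest p and 5 globins. Cldn13, Blvrb, Alas1, Hba-x, Elane, Mpo and Prtn3 were named after their values were seen. Members and lists were chosen with earlier results of these data known. Alternatives were the probe set choice, median centring, a filter, limma's trend, a replicate block and leaving out each pool.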

Additional observations from a re-analysis of the deposited data

How the results depend on the processing

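No gene passed limma's adjusted threshold under any alternative run; with the replicate number as a block 0 genes passed (738 at an unadjusted p under 0.05, against 1134 without it). The labels do not say whether pools of the same number belong together. Over all genes the deviations of same-numbered pools correlated at -0.19, which is the r of 0.19 between the gaps with its sign turned. Whether such pools were handled together was not tested. The crossed replicate block, chosen after seeing the data, gave 0 genes at an adjusted p under 0.05 and 1669 at an unadjusted p. With specific probe sets first the sign turned for Alad (-0.11), Urod (-0.06), Slc4a1 (0.02), Add2 (0.01) and Xpo7 (-0.56), with probe sets averaged per gene for Fech (-0.12), Slc4a1 (0.07) and Xpo7 (-0.17), and with median centring for Fech (-0.03) and Xpo7 (-0.02). Leaving out 1 pool turned the sign of 22 of the 31 members, with ranges of Uros -0.36 to 0.18, Urod -0.15 to 0.53, Cpox -0.59 to 0.03, Fech -0.22 to 0.26, Alas2 -0.36 to 0.32, Tfrc -0.22 to 0.60, Tfr2 -0.14 to 0.01, Slc25a38 -0.17 to 0.09, Slc4a1 -0.98 to 0.71, Ank1 -0.30 to 0.60, Add2 -0.45 to 0.25, Ermap -1.30 to 1.41, Rhd -0.84 to 1.19, Aqp1 -0.51 to 0.26, Kel -0.74 to 1.32, Cd36 -0.53 to 0.44, Tspo2 -0.51 to 0.41, Tmcc2 -0.30 to 0.22, Klf1 -0.64 to 1.82, Car1 -1.30 to 2.32, Bpgm -0.86 to 0.09 and Xpo7 -0.01 to 0.09. These sign changes without a pool were not counted over all genes, so their number is not read as particular to the members. Without a pool, the median ran from -0.24 to 0.32 over all members, from -0.22 to 0.26 for heme synthesis, from -0.13 to 0.09 for iron and mitochondrial transport, from -0.48 to 0.51 for membrane and surface and from -0.59 to 0.06 for other red cell genes. Abcb10, Car2, Hebp1, Ppox, Rhag, Slc25a37, Sptb and Trim10 kept their sign under all alternatives run. The count of members with the shared pool order was 17 of 31, 19 of 31, 18 of 31 and 16 of 28 with specific probe sets, mean probe sets, median centring and the filter, alternatives added after seeing the data. The causes were not tested.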

Other observations

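Outside the erythroid lists, 23 genes had both pool gaps of at least 1 in the direction of Car1, Ermap and Rhd, and 7 genes had both gaps of at least 1 in the opposite direction. The genes named here were chosen after their values were seen. They stand for no gene group, and no list was tested. Igha, the immunoglobulin alpha heavy chain constant region, on an _x_at probe set, stood at 10.03 and 7.16 against 6.55 and 9.45 (deficient pools 1 and 2 against wild type pools 1 and 2). Vpreb1, a part of the surrogate light chain of early B cells, stood at 9.12 and 7.27 against 6.01 and 8.97, and Dntt, the terminal transferase of lymphoid progenitors, at 10.52 and 8.59 against 7.88 and 9.67. Col5a1 (collagen V) stood at 8.22 and 5.86 against 5.57 and 8.16, and Dcn (decorin) at 9.29 and 4.74 against 5.95 and 7.62. The metallothionein gene Mt2 was 1.84 higher in deficient pool 1 than in pool 2, and 2.13 higher in wild type pool 2 than in pool 1, on the log2 scale. These genes were picked for both pool gaps, so their shared pool order is not a separate finding. None of them passed limma's adjusted threshold between genotypes.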
